A study of Mus musculus with 4 samples.

Results

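Imprinted genes are genes expressed mainly from the copy inherited from one parent, and 49 of them were taken by gene symbol from the 54532 genes of the deposited count table. They fell into 22 imprinted clusters, of which 12 held several members and 10 held 1. By textbook assignment 26 were grouped as expressed from the paternal copy and 18 from the maternal copy. The remaining 5 were set apart because the expressed copy depends on the isoform or the tissue. Such dependence is not confined to them, since Ube3a, grouped as maternal, is so expressed in neurons. RNA-seq of poly(A) RNA was done on C3H10T1/2 cells, a mesenchymal stem cell line of the mouse, in 4 libraries with 1 library per group. Cells of the control group received a non-targeting siRNA and cells of the siDNMT1 group an siRNA against DNMT1, each for 48 h and with no induction. The OB (osteoblast) and siDNMT1_OB groups received the same 2 siRNAs and were then induced toward osteoblasts for 3 days in medium with 50 µM ascorbic acid, 10 mM glycerophosphate and dexamethasone. No uninduced library held for those 3 days is listed. Every induction comparison therefore also spans that time in culture, and its part was not tested. All groups are 1 cell line, so the state of its imprints is that of this line and not of a tissue, and the reads were counted per gene without separating the parental copies.

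At an imprinted cluster, a control region carries DNA methylation on one parental copy only, set in the germ line. Cell division does not erase the mark, since DNMT1 restores it each time the genome is duplicated. Loss of the mark can switch on the silent copy of some genes of a cluster and switch off the active copy of others, because neighbouring genes often answer to the same control region in opposite ways. Many imprinted genes act in growth and in the commitment of progenitor cells.

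The sequences below are shown because DNA methylation in mammals falls on cytosines followed by guanine, and because they belong to members with large differences between libraries. For Mest, Plagl1 and Dlk1, the window from 250 bases before to 50 bases after a RefSeq start (GRCm38) is given 5′ to 3′ on the gene's strand, with each CG in capitals. Mest is on the plus strand at chr6:30737800-30738099 and held 17 CG pairs. Plagl1 is on the plus strand at chr10:13090582-13090881 and held 26. Dlk1 is on the plus strand at chr12:109452573-109452872 and held 9.
Mest: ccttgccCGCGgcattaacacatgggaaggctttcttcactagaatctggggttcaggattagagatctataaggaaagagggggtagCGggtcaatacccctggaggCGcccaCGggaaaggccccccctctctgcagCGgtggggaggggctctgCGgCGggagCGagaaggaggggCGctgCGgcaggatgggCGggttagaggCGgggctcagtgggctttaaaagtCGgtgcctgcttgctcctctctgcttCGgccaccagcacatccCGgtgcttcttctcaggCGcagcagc
Plagl1: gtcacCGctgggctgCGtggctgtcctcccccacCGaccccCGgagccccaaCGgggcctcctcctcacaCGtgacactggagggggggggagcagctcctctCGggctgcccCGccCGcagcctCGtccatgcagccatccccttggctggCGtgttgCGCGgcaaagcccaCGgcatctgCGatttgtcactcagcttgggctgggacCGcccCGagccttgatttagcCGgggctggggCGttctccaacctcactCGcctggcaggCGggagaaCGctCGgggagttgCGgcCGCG
Dlk1: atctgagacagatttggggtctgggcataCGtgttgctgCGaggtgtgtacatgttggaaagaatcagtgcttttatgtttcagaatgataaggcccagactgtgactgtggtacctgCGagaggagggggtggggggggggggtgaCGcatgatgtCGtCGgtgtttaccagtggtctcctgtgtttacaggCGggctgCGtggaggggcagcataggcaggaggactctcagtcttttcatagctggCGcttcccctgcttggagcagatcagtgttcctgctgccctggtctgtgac
Such a window was matched for 42 of the 49 members, and the median CG count was 17, against 8 over the windows of 27025 genes. Where RefSeq gave several starts for a gene, the one with the most CG pairs was used. No window was matched for H19, Peg10, Sgce, Rtl1, Kcnq1, Trappc9 and Impact in the set of windows used here. Of the members with a window, the 6 past the fold defined below in any comparison had a median of 10.5 CG pairs and the others 17.5. The others include members with too few counts to be called, so the medians do not set changed against unchanged genes. The letters TGCCGC, searched on both strands and chosen after values were seen because the zinc finger protein ZFP57 binds them when methylated, lay in the windows of 11 members (26.2%, against 12.2% of all windows). Mest and Plagl1 were among those 11 and Dlk1 was not. These letters hold a CG themselves, and the members' windows held more CG pairs than all windows (median 17 against 8). The part of CG content in the match rate was not tested. A match describes the letters only.

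Members also carry microRNAs in their transcripts. H19 holds miR-675 in an exon, and Mest holds miR-335 in an intron. Their mature sequences from RefSeq follow with the seed, bases 2 to 8, in capitals.
miR-675-5p: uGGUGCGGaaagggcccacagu
miR-675-3p: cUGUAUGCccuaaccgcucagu
miR-335-5p: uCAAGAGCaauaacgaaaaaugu
miR-335-3p: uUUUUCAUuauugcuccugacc
The 4 seeds differ from each other. Counts of poly(A) RNA measure the host transcripts and not these mature microRNAs.

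The libraries held between 22296046 and 27367792 counts, and the floor of 3 counts lay at 0.111 to 0.133 CPM (counts per library total, adjusted with TMM factors). Of the 54532 genes, 13233 had a mean of at least 1 CPM and entered the comparisons. Mesenchymal markers were high in all libraries (8 of 8, summed level 27800 to 34000 CPM), and of 5 osteoblast markers 1, Runx2, reached 1 CPM, while Alpl and Bglap stayed at or under 3 counts in every library, Sp7 had 5, 1, 8 and 4 counts and Ibsp 1, 3, 6 and 17 in control, siDNMT1, OB and siDNMT1_OB. Of 4 adipocyte markers, Fabp4 moved with OB induction, from 111 counts (control) and 72 (siDNMT1) to 963 (OB) and 1305 (siDNMT1_OB), while Pparg had 918, 868, 1029 and 860 counts in control, siDNMT1, OB and siDNMT1_OB, Adipoq at most 2 and Plin1 none. The list's summed level was 37.9 and 36.7 CPM without induction and 88.2 and 80.9 CPM after it, and its part in the results was not tested. With 1 library per group there is no replicate check, no test and no p-value, and each interval given is a Clopper-Pearson 95% interval, exact for the counts and covering counting error only. In bulk RNA, fewer cells expressing a gene and less RNA per cell cannot be told apart.

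Dnmt1 itself, the target of the siRNA, had 7195 counts in the control library and 3375 in siDNMT1, and after induction 1931 in OB and 2492 in siDNMT1_OB. It was 2.01-fold lower in siDNMT1 than in control (log2 fold change −1.01, −1.07 to −0.95). The library labelled siDNMT1_OB was not lower than OB (log2 fold change 0.13, 0.04 to 0.21). The Dnmt1 count therefore does not check the label of that library, and every direction given below for the OB pair, or for induction with DNMT1 siRNA, is that of the library labelled siDNMT1_OB against the library labelled OB or siDNMT1. OB induction itself moved Dnmt1 by −1.63 with control siRNA.

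Of the 49 members, 35 passed the mean of 1 CPM and 14 did not. H19 and Slc22a18 passed through the libraries in which they were high, so a difference between libraries was a condition of their passing. Members together held 0.23% and 0.271% of the counts in control and siDNMT1, and 0.3% and 0.312% in OB and siDNMT1_OB. A member was called higher or lower at a log2 fold change (CPM with a prior count of 2) of at least 1 in size. Ratios, fold values and all intervals use no prior count, so at low counts they differ from the log2 fold change beside them. By that rule 9 members were past the fold in at least 1 of the 4 comparisons. The share of all genes past it in any comparison was not counted, so the 9 have no background beside them.

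In untreated cells, 2 of the 35 members rose with DNMT1 siRNA (H19 and Mest) and none fell, while 1.97% of all genes were past the fold upward and 1.37% downward. The members' median log2 fold change was 0.25, against 0.00 over all genes, and 26 of 35 values were positive. The 13 further imprinted genes described below had a median of −0.25 there, with 5 values positive and 8 negative. In the OB pair, 3 members were higher in siDNMT1_OB (H19, Dlk1 and Peg10) and 1 was lower (Slc38a4), against 2.36% and 1.37% of all genes. The median there was −0.01, against 0.01 over all genes, and 17 of 35 values were positive. These 2 comparisons share no library, and 20 of 35 members had the same sign in both, against 53.3% of all genes. Without H19, whose passing of the filter rested on siDNMT1_OB, the higher calls are Mest in the untreated pair, and Dlk1 and Peg10 in the OB pair.

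OB induction moved more of the members past the fold, as it did of all genes. With control siRNA, 5 members rose (H19, Slc22a18, Sgce, Mest and Plagl1) and 4 fell (Dlk1, Peg10, Peg12 and Slc38a4). These were 14.3% and 11.4% of the 35, where 10.6% of all genes were past the fold upward and 7.1% downward. With DNMT1 siRNA, 3 rose (H19, Mest and Plagl1) and 3 fell (Dlk1, Peg10 and Slc38a4). Both shares were 8.57%, where the background was 6.83% and 2.71%. H19 and Slc22a18 passed the filter through libraries in which they were high. Without them the higher calls are Sgce, Mest and Plagl1 under control siRNA, and Mest and Plagl1 under DNMT1 siRNA. The median over members was 0.42 under control siRNA, and 0.01 under DNMT1 siRNA. Over the members whose span overlaps no gene on the opposite strand, which leaves out H19, Mest and Plagl1, the medians were −0.08 and −0.16. Over all genes the medians were 0.01 and 0.00. Of the 35 members, 29 had the same sign in both inductions, which share no library, against 79.6% of all genes.

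**Figure D1:**
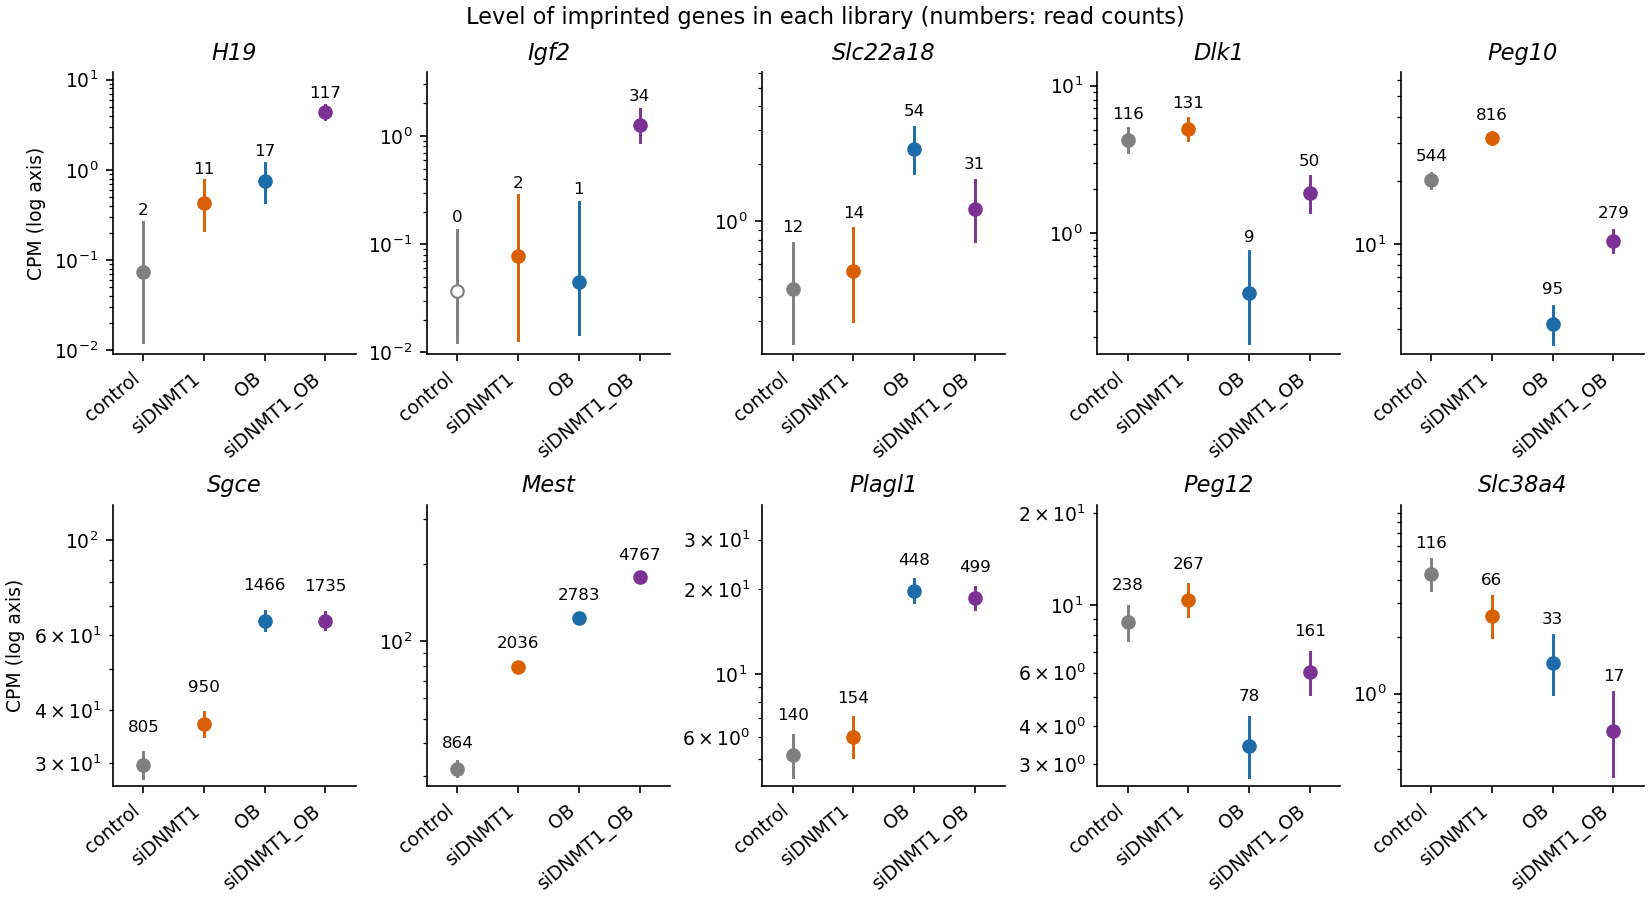
Level in CPM (log axes) of the 9 members past the fold and of Igf2 in each library, with the read count above each point and bars for the exact 95% interval, shortened at the lower end for the lowest points. The open circle stands for 0 counts and is placed at the level of 1 count. Dlk1, Peg10 and Peg12 are lowest in OB, H19, Igf2 and Mest are highest in siDNMT1_OB, and Slc38a4 is highest in control.

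The H19-Igf2 cluster on chromosome 7 pairs a maternally expressed long non-coding RNA with a paternally expressed growth factor that signals through the type 1 IGF receptor. H19 (chr7:142575529-142578143, minus strand) had 2 and 11 counts in the untreated control and siDNMT1 libraries, and 17 and 117 in OB and siDNMT1_OB. Each treated library was above control, and siDNMT1_OB stood far above the other 3. The ratio to control was 5.82 in siDNMT1 (1.27 to 54.1) and 10.2 in OB (2.42 to 91), both wide because control held 2 counts. The ratio of siDNMT1_OB to OB was also 5.82, with a narrower interval (3.48 to 10.3), and that of siDNMT1_OB to siDNMT1 was 10.2 (5.49 to 21). H19 stayed a low transcript, at 0.086 TPM (a level per exon length) in control and 5.46 TPM in siDNMT1_OB.

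Igf2 (chr7:142650766-142666816, minus strand), 72622 bases from H19 on the same strand, had 0 counts in control and 2 in siDNMT1, then 1 in OB and 34 in siDNMT1_OB. A count of 0 in control allows a level of up to 0.111 CPM by the floor of 3 counts, and of up to 0.136 CPM by the Clopper-Pearson interval. Only siDNMT1_OB held more than the floor, with a ratio of 28.7 to OB (4.82 to 1170) and of 16.3 to siDNMT1 (4.17 to 140). Igf2 did not reach a mean of 1 CPM and is outside the counts above. Its antisense transcript Igf2os had 0, 3, 0 and 13 counts in control, siDNMT1, OB and siDNMT1_OB. Of the exon bases of Igf2, 64.5% are also annotated to Gm49394 or Igf2os, so reads there may have been assigned elsewhere. The study drew Igf2 and Dlk1 in a network of genes higher in siDNMT1_OB in these same libraries, so their values in the OB pair are no independent evidence, and H19 was a gene it took up for RT-qPCR. Of 6 other genes past 1 CPM within 250 kb of H19, a neighbourhood set after values were seen, none was past the fold upward with DNMT1 siRNA in either pair (untreated range −1.23 to 0.34, OB pair range −0.94 to 0.58). In the inductions Ifitm10 passed the fold upward (1.58 under control siRNA and 1.32 under DNMT1 siRNA), and so did Ctsd under DNMT1 siRNA (1.27). Syt8 passed it downward in the untreated pair (−1.23).

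The Dlk1-Dio3 cluster on chromosome 12 holds 3 paternally expressed protein-coding genes and the maternally expressed long RNAs Meg3, Rian and Mirg, which host many small RNAs. Dlk1 (chr12:109452823-109463336, plus strand) encodes a transmembrane Notch-like protein known for holding preadipocytes and other progenitors undifferentiated. The untreated libraries held 116 counts of Dlk1 (control) and 131 (siDNMT1), the induced ones 9 (OB) and 50 (siDNMT1_OB). Both untreated libraries were high and OB was lowest. OB induction lowered the CPM of Dlk1 10.7-fold with control siRNA (log2 fold change −3.19, −4.59 to −2.45) and 2.74-fold with DNMT1 siRNA (−1.42, −1.95 to −0.97). The untreated libraries differed by 0.25 (−0.11 to 0.63), so its value of 2.03 in the OB pair (1.19 to 3.44) came with a difference of 1.78 between the siDNMT1 effects, with a counting SE of 0.51.

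The 3 maternal RNAs of the cluster did not follow Dlk1 past the fold. Meg3 had 4786, 5730, 6453 and 9586 counts in control, siDNMT1, OB and siDNMT1_OB. It was lowest in control and highest in siDNMT1_OB, with log2 fold changes of 0.34 (untreated) and 0.33 (OB pair) with DNMT1 siRNA, and of 0.69 and 0.68 in the 2 inductions. Rian, which carries small nucleolar RNAs, had 3961, 4257, 2355 and 4453 counts in control, siDNMT1, OB and siDNMT1_OB, and was lowest in OB. Mirg, host of a large group of microRNAs, had 172, 223, 122 and 253 counts in the same order and was also lowest in OB. In OB against control, Meg3 stood at 0.69 and Dlk1 at −3.19, which puts Dlk1 at −3.89 relative to Meg3 (counting SE 0.46), although they lie on the same strand 77664 bases apart. Per exon length, the maternal RNAs outweighed the paternal genes in every library: Meg3 ranged from 28 to 60.8 TPM and Rian from 17.7 to 28 TPM, while Dlk1 ranged from 0.217 to 2.72 TPM. The paternal genes Rtl1, a retrotransposon-derived gene needed in placenta, and Dio3, which inactivates thyroid hormone, stayed under the filter. Rtl1 had 13, 13, 7 and 16 counts and Dio3 had 0, 5, 3 and 10 in control, siDNMT1, OB and siDNMT1_OB.

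**Figure D2:**
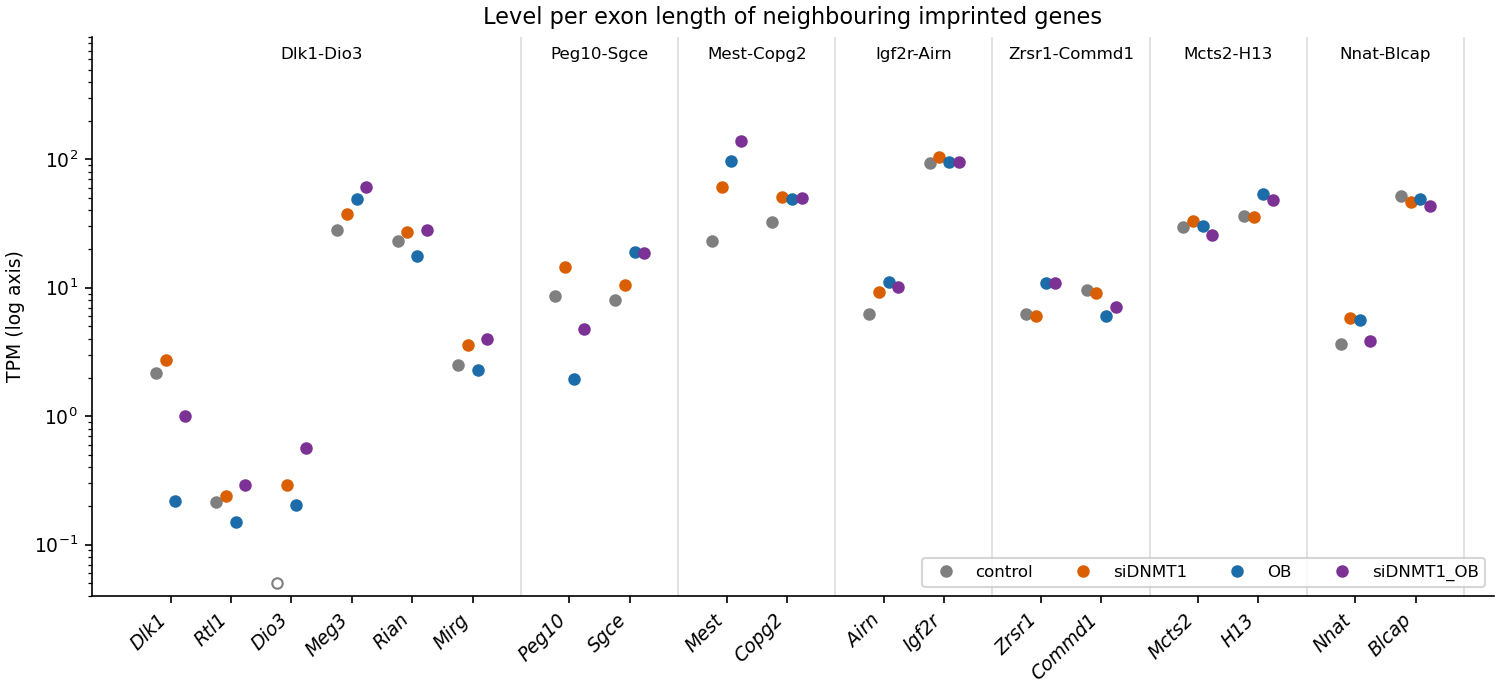
Level per exon length (TPM, log axis) of neighbouring imprinted genes in 7 clusters, 1 point per library; the open circle is Dio3 in control at 0 counts, placed at the axis base. Meg3 and Rian lie above Dlk1, Rtl1 and Dio3 in all 4 libraries, and Peg10 and Sgce move in opposite directions between control and OB.

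Peg10 and Sgce on chromosome 6 are both expressed from the paternal copy and are read outward from a shared start region, with 98 bases between their annotated spans (Peg10 chr6:4747306-4760517, plus strand, and Sgce chr6:4674350-4747207, minus strand). Peg10 is a retrotransposon-derived gene needed in placenta, and Sgce encodes epsilon-sarcoglycan, a membrane protein of the dystrophin complex. Counts of Peg10 were 544 and 816 before induction (control and siDNMT1) and 95 and 279 after it (OB and siDNMT1_OB). It fell 4.77-fold in CPM with OB induction under control siRNA (log2 fold change −2.23, −2.59 to −1.94) and 3.05-fold under DNMT1 siRNA (−1.60, −1.81 to −1.41). Each DNMT1 siRNA library was above its partner, by 0.67 (0.51 to 0.83) without induction and by 1.30 (0.97 to 1.66) after it.

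Sgce had 805 and 950 counts in control and siDNMT1, and 1466 and 1735 in OB and siDNMT1_OB. The induced libraries were the high ones, and the OB pair stood at 0.00 (−0.10 to 0.10). Sgce rose with induction by 1.13 (1.00 to 1.25) under control siRNA, just past the fold, and stood at 0.80 under DNMT1 siRNA. The gap between the 2 genes was −3.36 in OB against control (counting SE 0.17) and −2.41 in siDNMT1_OB against siDNMT1 (counting SE 0.12), so these neighbours moved apart in both inductions. Of the maternal members of the cluster, Asb4, a ubiquitin ligase adaptor, had 19, 8, 11 and 12 counts in control, siDNMT1, OB and siDNMT1_OB, and Ppp1r9a had none.

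Mest (chr6:30723547-30748465, plus strand) encodes a hydrolase-like membrane protein of mesoderm and fat tissue. Its counts were 864, 2036, 2783 and 4767 in control, siDNMT1, OB and siDNMT1_OB, each library above the one before it with intervals that did not overlap. It was 2.49-fold higher with DNMT1 siRNA in untreated cells (2.30 to 2.70), and the OB pair stood at a ratio of 1.45 (1.38 to 1.52). OB induction raised it 3.86-fold with control siRNA and 2.24-fold with DNMT1 siRNA. Copg2, its neighbour on the opposite strand and a coat protein gene of Golgi vesicles, had 1568, 2203, 1844 and 2244 counts in control, siDNMT1, OB and siDNMT1_OB. Its log2 fold change in the untreated pair was 0.57 against 1.32 for Mest, and no comparison took Copg2 past the fold. The 2 genes overlap at their ends, where 23.1% of the exon bases of Mest are also exon of Copg2, and the use of strand in counting was not stated in the sources used here. Tmem209 and Cep41, the other genes past 1 CPM within 250 kb of Mest, ranged from −0.15 to 0.29 over the 4 comparisons.

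Plagl1 (chr10:13060504-13131694, plus strand) is a paternally expressed zinc finger transcription factor that restrains the cell cycle. Its counts were 140 and 154 without induction (control, siDNMT1) and 448 and 499 after it (OB, siDNMT1_OB). The untreated libraries were low and the induced ones high, whichever siRNA was used. Induction raised it by 1.92 (1.66 to 2.22) and 1.62 (1.37 to 1.90), while the siDNMT1 effects were 0.22 (−0.12 to 0.56) and −0.09 (−0.27 to 0.10). Of 5 genes past 1 CPM within 250 kb of Plagl1, Phactr2 also passed the fold with induction (1.62 under control siRNA). Slc38a4 (chr15:96994820-97055956, minus strand), a paternally expressed amino acid transporter, ran the other way. Control held 116 counts and siDNMT1 66, OB held 33 and siDNMT1_OB 17, and Slc38a4 was the one member lower with DNMT1 siRNA in the OB pair (−1.11, −2.14 to −0.31). The untreated pair stood at −0.71 (−1.19 to −0.28), short of the fold. Induction lowered it 2.93-fold with control siRNA and 4.06-fold with DNMT1 siRNA. Its neighbour Amigo2 also fell under control siRNA (−1.49), and was higher in siDNMT1_OB than in OB (1.65).

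On the Snrpn-Ube3a cluster of chromosome 7, Peg12 (chr7:62461871-62464510, minus strand), a paternally expressed gene of the Frat family that binds GSK3, had 238 and 267 counts in control and siDNMT1, and 78 and 161 in OB and siDNMT1_OB. It fell 2.54-fold in CPM with induction under control siRNA (log2 fold change −1.33, −1.74 to −0.97) and stood at −0.78 under DNMT1 siRNA. Ndn, a paternally expressed growth-restraining gene 111608 bases away, ranged from −0.21 to 0.27 over the 4 comparisons, and Ube3a, a maternally expressed ubiquitin ligase in neurons, from −0.14 to −0.05. Mkrn3, an imprinted gene outside the members, lies 41732 bases from Peg12. It stood at −1.10 in the OB pair, where Peg12 stood at 0.79. In the untreated pair Mkrn3 stood at −0.58, and in the inductions at −0.57 (control siRNA) and −1.08 (DNMT1 siRNA). Magel2 had no count, and Snrpn is listed at 1 count at most, but 34.1% of its exon bases are shared with other annotated genes.

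In the Kcnq1 cluster of chromosome 7, Slc22a18 (chr7:143473736-143499334, plus strand), a maternally expressed transporter-like gene, had 12 counts (control), 14 (siDNMT1), 54 (OB) and 31 (siDNMT1_OB). OB was highest. Induction with control siRNA raised it 5.40-fold (2.85 to 11.1). It stood just short of the fold in the OB pair (−0.996) and in the induction with DNMT1 siRNA (0.985). Of 4 genes outside the members past 1 CPM within 250 kb of Slc22a18, none was past the fold upward. Cars passed it downward in OB against control (−1.28) and Tnfrsf23 in the untreated pair (−1.46). The cluster's paternal non-coding RNA Kcnq1ot1, which silences the neighbouring genes in cis, had log2 fold changes from −0.13 to 0.82, with its highest value in OB against control. The maternal genes Cd81, a tetraspanin, Tssc4 and the lipid transfer gene Osbpl5 ranged from −0.04 to 0.55, −0.51 to 0.37 and −0.26 to 0.61. Kcnq1 and Phlda2 had no count in any library, and Ascl2 stayed under the filter.

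**Figure D3:**
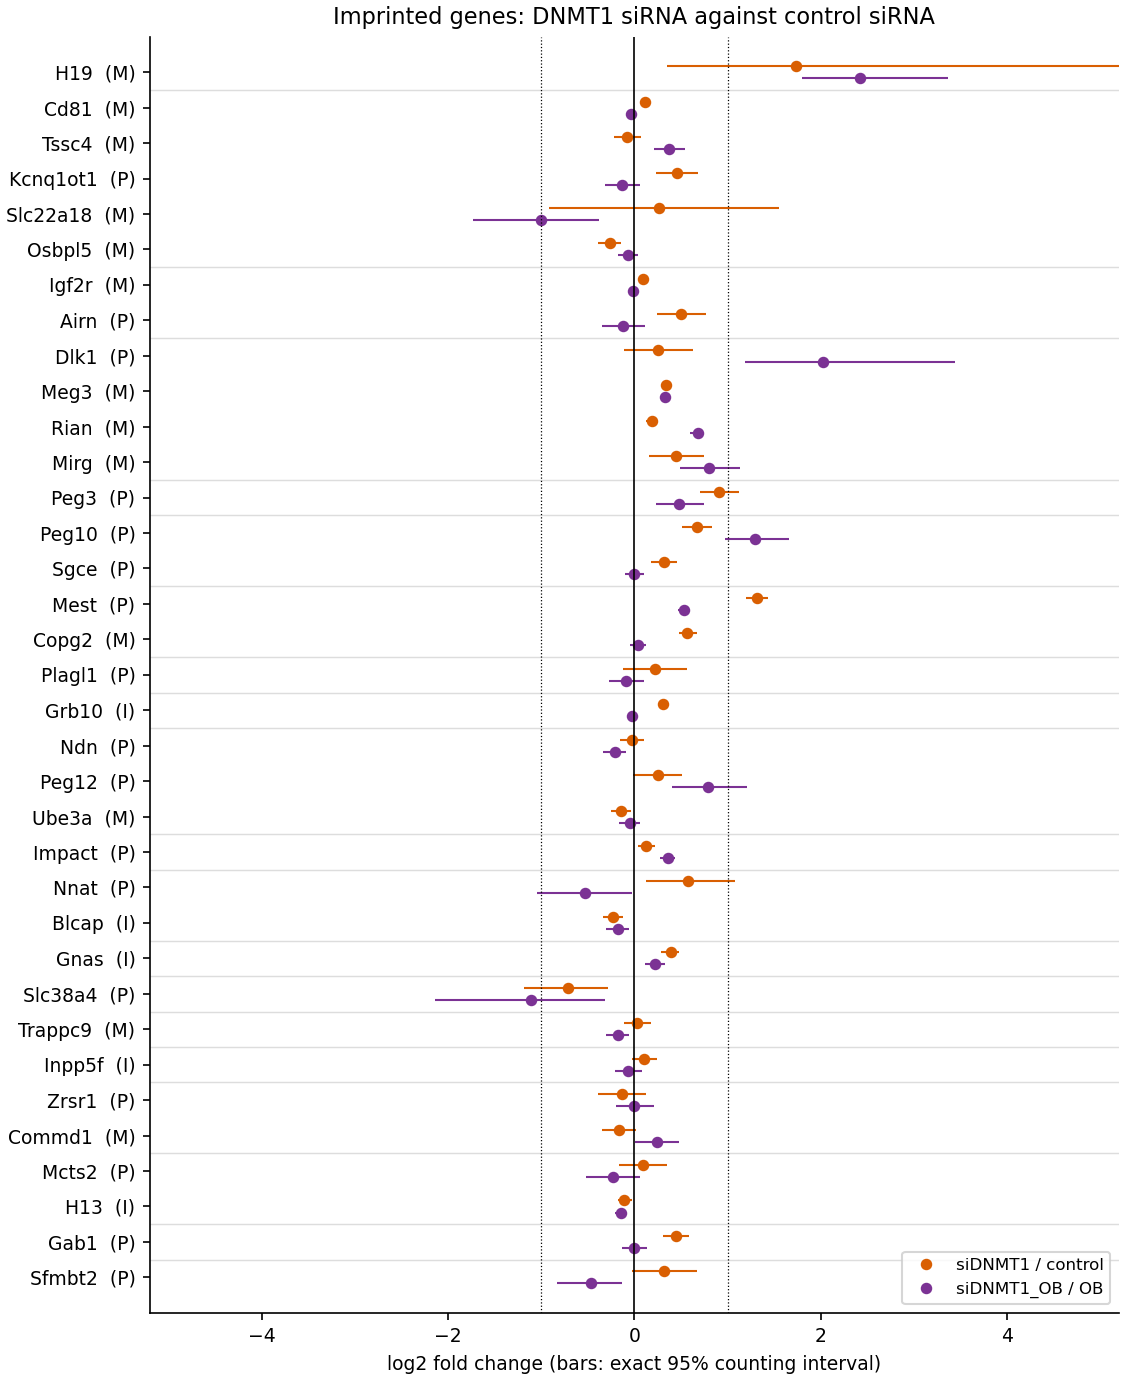
Log2 fold change of the 35 members past the filter with DNMT1 siRNA, in untreated cells (orange) and in the OB pair (purple), with exact 95% counting intervals, dotted lines at the fold used for calls, and grey lines between clusters; letters give the expressed copy (P paternal, M maternal, I isoform or tissue). Mest lies past the fold in untreated cells, Dlk1 and Peg10 in the OB pair, H19 in both, and the untreated interval of H19 runs beyond the axis.

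The other 26 members past the filter did not reach the fold in any comparison, and the largest size among them was 0.91, for Peg3 in the untreated pair. Peg3, a paternally expressed zinc finger gene, had 303, 540, 202 and 335 counts in control, siDNMT1, OB and siDNMT1_OB, and its siDNMT1 values were 0.91 (0.71 to 1.12) and 0.48 (0.23 to 0.75). With DNMT1 siRNA in untreated cells, the intervals of 14 of these 26 lay above 0 and those of 4 below, and in the OB pair those of 8 and 7. Over all 35 members the numbers were 18 and 5, then 13 and 9. The shares of all genes that follow include genes past the fold, so they go beside the 35 and not the 26. Of all genes, 26.0% lay above and 26.8% below in the untreated pair, and 27.6% and 23.6% in the OB pair. With OB induction the numbers for the 26 were 15 and 8 under control siRNA, and 9 and 8 under DNMT1 siRNA. Over all 35 members they were 20 and 12, then 14 and 12. All genes gave 37.1% and 37.3% under control siRNA, and 33.1% and 33.1% under DNMT1 siRNA.

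Neighbouring members within the other clusters also differed in their values. At the Igf2r-Airn cluster of chromosome 17, the paternal non-coding RNA Airn ranged from −0.12 to 0.72 and Igf2r, the maternally expressed receptor that clears IGF2, from −0.16 to 0.09. In OB against control the gap between them was 0.78 (counting SE 0.13). At Zrsr1-Commd1 on chromosome 11, the paternal splicing factor gene Zrsr1 stood at 0.68 and 0.81 in the 2 inductions, while Commd1, the maternal gene in whose intron it lies, stood at −0.79 and −0.38. Zrsr1 and Commd1 lie on opposite strands, so reads could be shared if strand was not used. At Mcts2-H13, the retrogene Mcts2 ranged from −0.40 to 0.09 and its host H13, a signal peptide peptidase, from −0.14 to 0.45.

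Grb10, an adaptor protein that dampens insulin signalling, was the member with the highest counts, 18155 to 23973, and ranged from −0.03 to 0.46. Ddc, its neighbour, had 2, 1, 19 and 12 counts in control, siDNMT1, OB and siDNMT1_OB and stayed under the filter, with a ratio of OB to control of 11.4 and a log2 interval of 1.46 to 6.66. Nnat, a neuronal membrane protein gene, ranged from −0.61 to 0.58 and Blcap, in whose intron it lies, from −0.23 to −0.13. Gnas, the stimulatory G protein locus, ranged from −0.43 to 0.39, with 22% of its exon bases shared with antisense genes. Impact ranged from 0.13 to 0.59, Trappc9 from −0.18 to 0.79, Inpp5f from −0.16 to 0.10, Gab1 from 0.00 to 0.45 and Sfmbt2 from −0.47 to 0.48. Usp29 and Zdbf2 had no count in any library, and Nap1l5 stayed under the filter.

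**Figure D4:**
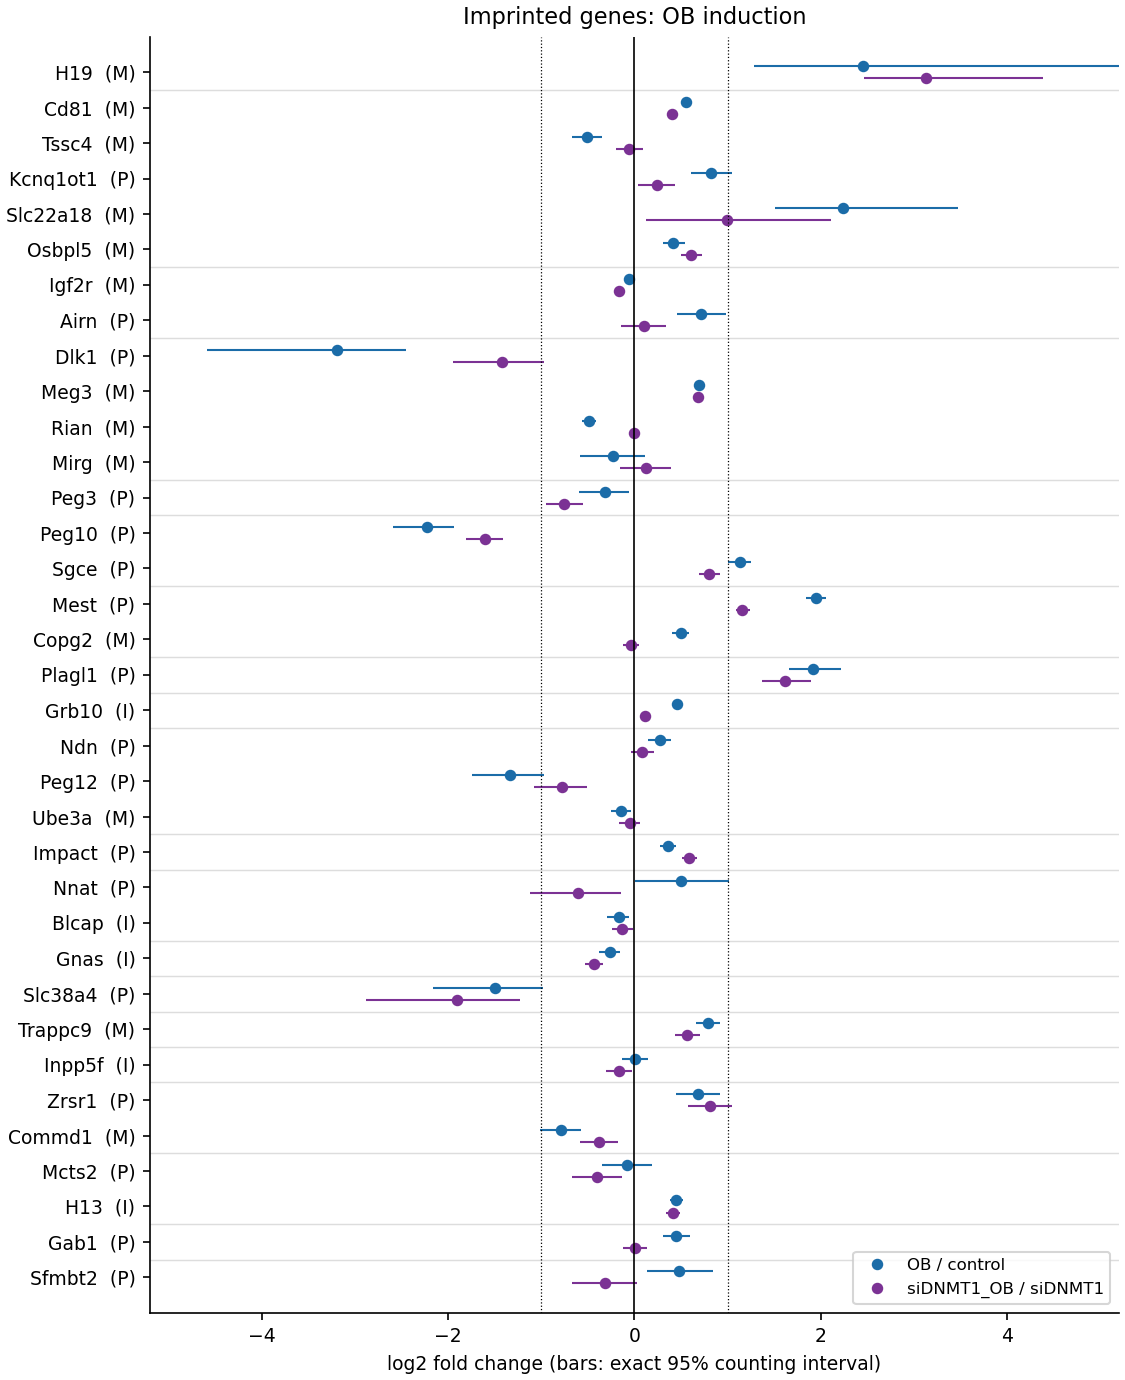
Log2 fold change of the same 35 members with OB induction, under control siRNA (blue) and under DNMT1 siRNA (purple), with exact 95% counting intervals. Dlk1, Peg10 and Slc38a4 lie below the lower dotted line in both inductions, and H19, Mest and Plagl1 above the upper one.

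Grouped by the expressed copy, the 17 paternal members past the filter had medians of 0.32 (untreated) and 0.00 (OB pair) with DNMT1 siRNA, and the 13 maternal members 0.11 and 0.04. With OB induction under control siRNA, the medians were 0.45 for the paternal and 0.42 for the maternal members, and under DNMT1 siRNA 0.01 and 0.12. With induction under control siRNA, 3 of the 17 paternal members rose (17.6%) and 4 fell (23.5%). Of the 13 maternal members 2 rose (15.4%) and 0 fell, beside 10.6% and 7.1% of all genes. Those 2 were H19 and Slc22a18, which passed the filter through the libraries in which they were high. No other maternal member rose past the fold. The difference between the copies was not tested. The groups follow textbook assignment, and the copy expressed in these cells was not measured, so a contrast between them is not one of measured copies. Paternal members were also the more dispersed, with a median size of change of 0.72 in OB against control, where maternal members had 0.51 and all genes 0.39. The 5 members set apart for isoform or tissue dependence stayed within −0.43 and 0.46 in all 4 comparisons.

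**Figure D5:**
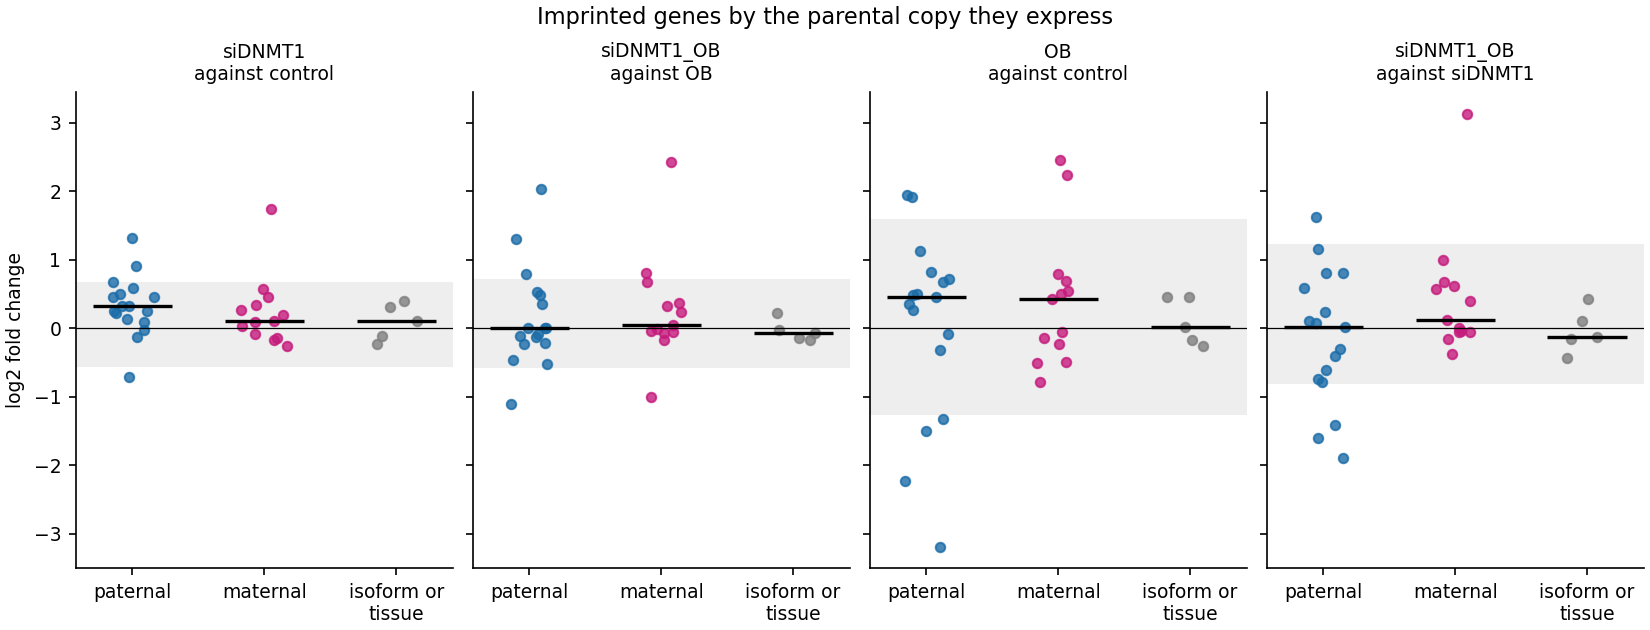
Log2 fold change of the 35 members by expressed copy in each comparison, 1 point per gene with the median as a black line; the grey band spans the 5th to 95th percentile of all 13233 genes. In OB against control the paternal members spread from −3.19 to 1.95 and the maternal members from −0.79 to 2.45, beside a band of −1.26 to 1.58.

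Among 30 further imprinted genes outside the members, 13 passed the filter. None was past the fold in the untreated pair and 1, Mkrn3, was lower in the OB pair (88, 55, 49 and 26 counts in control, siDNMT1, OB and siDNMT1_OB), which is 7.69% of the 13 beside 1.37% of all genes. With OB induction, Pon3, Phactr2 and Adam23 rose under control siRNA, and under DNMT1 siRNA Pon3 and Adam23 rose and Mkrn3 fell. As shares of 13 these counts were 23.1% higher and 0% lower, then 15.4% and 7.69%, beside 10.6% and 7.1%, then 6.83% and 2.71%, of all genes. The median log2 fold changes of the 13 were −0.25 (untreated), −0.02 (OB pair), −0.31 (induction under control siRNA) and 0.31 (induction under DNMT1 siRNA). The members' medians were 0.25, −0.01, 0.42 and 0.01 in the same order. Pon3 lay at the threshold, at 1.03 and 1.01, and was short of it in both inductions with DESeq2 size factors (0.98 and 0.99). With those factors 2 of the 13 were higher and 1 lower under control siRNA, and 1 higher and 1 lower under DNMT1 siRNA. Of 20 imprint control factors, demethylase genes of the TET family among them, 18 passed the filter. Dnmt1 was the one past the fold in the untreated pair, though it fell short of the fold with upper quartile factors (−0.98) and, by less than the second decimal, with total counts. OB induction under control siRNA lowered Dnmt1, Uhrf1, which recruits DNMT1 to replicated DNA, Hells and Ezh2, and raised the demethylase gene Tet1. These calls were 5.56% of the 18 upward and 22.2% downward, beside 10.6% and 7.1% of all genes. With DESeq2 size factors Tet1 was short of the fold (0.97), and 0 of the 18 were higher and 5 lower. Under DNMT1 siRNA Zfp57, the imprint-protecting zinc finger gene, was past the fold upward (5.56%, beside 6.83% of all genes), and none downward (2.71% of all genes). Zfp57 stood at 0.93 under control siRNA and 1.06 under DNMT1 siRNA, and Tet1 at 1.02 and 0.73. Uhrf1 was at 934 counts in OB and 2385 in siDNMT1_OB (log2 fold change 1.11, 1.00 to 1.22), the one factor past the fold in the OB pair. Its part in the members' values was not tested.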

How the data were processed

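Poly(A) RNA of C3H10T1/2 cells was measured in 4 libraries, 1 for each of the groups control, siDNMT1, OB and siDNMT1_OB. The authors deposited raw read counts per gene, whole numbers with no normalization. Per the submitters' processing notes and the study's methods, reads were trimmed with Trimmomatic, aligned with HISAT2 (mm10) and counted with featureCounts. Versions, strand use and the treatment of reads with several positions are not given in the sources used here. Of 54409 gene IDs shared with GENCODE, 98.3% had the same GRCm38 position.

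From these counts, TMM factors (edgeR 4.0.16 in R 4.3.3) were computed over the genes with a mean of at least 1 CPM. They lay between 0.991 and 1.01. They had first been computed over all genes, and this was changed after results were seen; the closing section gives both. Log2 fold changes used CPM with a prior count of 2, and calls a size of at least 1, the size threshold in the study's methods. Intervals are exact 95% intervals (scipy 1.17.1) of the counts without the prior count, as are the ratios. A log2 fold change is therefore not the centre of the interval printed with it. TPM used the deposited exon lengths. The code was tested on simulated counts. There the intervals first missed the coverage asked of each set of changed genes, and the criterion was then loosened to one pooled over the sets. The intervals take the scaling factors as known.

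Members and lists were chosen with earlier results of these data known. Members past the filter and past the fold in at least 1 comparison are given with all 4 counts, other members past the filter with ranges, and members under the filter with counts where a library held at least 10. The lists were 30 further imprinted genes, 20 imprint control factors, of which genes past the fold are named, and cell type markers. Of the remaining marker lists, blood, endothelial, epithelial and neuronal markers each summed to at most 7.7 CPM in any library. Tek, an endothelial marker, held 51, 152, 63 and 203 counts in control, siDNMT1, OB and siDNMT1_OB, where Pecam1 held 8, 4, 4 and 3 and Cdh5 1, 3, 1 and 0, and its part in the results was not tested. The 11 alternatives covered scaling, filter, prior count, call rule and strand overlap, and DESeq2 1.42.0 gave the size factors of 1.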

Additional observations from a re-analysis of the deposited data

Results flagged for a closer look

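Nnat, a paternally expressed neuronal membrane protein gene, had 63 and 90 counts in control and siDNMT1 and 75 and 61 in OB and siDNMT1_OB, and it was picked out because both siDNMT1 effects had opposite signs and counting intervals that left out 0 (0.58, 0.12 to 1.08, in untreated cells and −0.53, −1.05 to −0.03, in the OB pair). The difference between the effects was −1.11, and it is also the difference between the 2 OB inductions, 0.50 (0.01 to 1.02) with control siRNA and −0.61 (−1.12 to −0.14) with DNMT1 siRNA, where the signs were again opposite. Grb10, an adaptor of insulin signalling, was picked out in the same way, with a difference of −0.35 between an effect of 0.31 (0.28 to 0.34) and one of −0.03 (−0.06 to −0.01). Neither difference was tested, since each group holds 1 library.

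Which genes this picks depends on the scaling. The opposite signs of Nnat in the siDNMT1 effects held under all 5 scalings run, while those in the OB inductions and those of Grb10 were not picked out with TMM factors over all genes, the scaling tried first, nor with DESeq2 size factors. With TMM factors over all genes, Sfmbt2 was picked out instead for its OB inductions (−0.78). With total counts and with upper quartile factors Cd81 was added for its siDNMT1 effects (−0.20 with both), and with upper quartile factors Sfmbt2 as well (−0.84).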

How the results depend on the processing

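No paired analysis was run, because each group holds 1 library and no 2 groups share more than replicate number 1. For the same reason no replicate could be left out. An additive fit of siRNA and induction, which leaves out any difference between the siRNA effects, was not run either. Dnmt1 in the untreated pair (−1.01) was short of the fold with upper quartile factors (−0.98) and total counts. With alternatives of scaling and prior count added after the data were seen, Tet1 and Pon3 were short of it with DESeq2 and all-gene TMM factors, and Pon3 under DNMT1 siRNA also with total counts and a prior count of 5. In the comparisons where it was past the fold, no member changed sign under the alternatives of scaling and prior count. The same held for the other genes named as past it, except Syt8, Cars and Tnfrsf23, for which these were not run. Sgce, at 0.00 in the OB pair, stood at −0.03 with total counts and at 0.02 with DESeq2 size factors. The members' median turned negative in both inductions under the alternative on strand overlap. The medians near 0 (−0.01 in the OB pair and 0.01 in siDNMT1_OB against siDNMT1) also changed sign with the scaling, to 0.01 and −0.01 with DESeq2 size factors. Counts of calls that moved by more than 1.5 times were these. With a filter at 5 CPM, higher calls were 1 in the untreated pair, 1 in the OB pair and 3 in OB against control, and lower calls 0 in the OB pair, 2 in OB against control and 1 in siDNMT1_OB against siDNMT1. With no filter, higher calls were 5 in the OB pair and 5 in siDNMT1_OB against siDNMT1. With a 1.5-fold threshold, higher calls were 4, 6, 10 and 9 for siDNMT1 against control, siDNMT1_OB against OB, OB against control and, last, siDNMT1_OB against siDNMT1. Lower calls with it were 1 in the untreated pair, 2 in the OB pair and 6 in siDNMT1_OB against siDNMT1. The shares of all genes given above hold for the main filter and fold. They were not counted for the other filters and this threshold, so these counts have no background beside them. Lower calls in the OB pair were 2 with total counts, 2 with upper quartile factors, 2 with a prior count of 0.5 and 0 with a prior count of 5, since Slc22a18 and Slc38a4 lie close to the fold. Without the 22 of 35 members whose span overlaps a gene on the opposite strand, H19, Mest and Plagl1 among them, higher calls were 0 in the untreated pair, 2 in OB against control and 0 in siDNMT1_OB against siDNMT1, and the medians of the inductions were −0.08 and −0.16. An alternative added after the data were seen, TMM factors over all genes (0.979 to 1.03), gave the same counts of calls in all 4 comparisons and medians of 0.25, 0.00, 0.38 and −0.02. No scaling moved the median over all genes by more than 0.05. The difference of the H19 siDNMT1 effects was 0.68 (counting SE 0.90), and 0.24 and 1.06 with prior counts of 0.5 and 5. Without a prior count the ratio was 5.82 in both pairs, so this difference comes from the prior count and shows no difference between the effects. Depth limits the ratios that rest on low counts, such as 2 for H19 and 0 for Igf2 in control and 9 for Dlk1 in OB.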
